A study of Mus musculus with 47 samples.

Results

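The Notch receptor Notch1, its ligands Dll1, Jag1 and Jag2, the glycosyltransferase Mfng, the proteases Adam17 and Aph1a and the nuclear cofactor Maml1 were followed over 5 genotypes of mouse foetal muscle progenitors. The set was chosen by name, with earlier results of these data known, so counts of members called are a description. All probes of these 8 genes in the probe table were taken, 10 of 25697 probes. The 8 genes were read as 8 of the 8658 genes that passed a detection filter. In progenitors without MyoD, Notch1 and Dll1 were each 1.80-fold lower than in wild type, and Mfng, whose probe was detected on 7 of 18 MyoD-/- and 9 of 10 wild-type arrays, was lower too. With a dominant-negative Mastermind in addition, Dll1 was 1.5-fold higher and Notch1 lower than in MyoD-/-. Without Rbpj, Notch1, Dll1 and Jag2 were lower than in MyoD-/-, but the Notch1 call was lost in 8 and the Dll1 call in 5 of 18 alternative analyses. The Jag2 call was kept in 16 of 18, but its probe was detected on 0 of 7 arrays without Rbpj and on 9 of 18 MyoD-/- arrays.

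Notch receptors are activated by Delta or Jagged ligands on neighbouring cells. Fringe enzymes such as Mfng add sugars to the receptor and so tune its response to each ligand class, the proteases ADAM10 and ADAM17 and then the gamma-secretase complex, of which Aph1a is a subunit, release the intracellular domain, and in the nucleus this domain binds RBPJ and a Mastermind protein such as Maml1 to switch on target genes. In foetal muscle this signal keeps Pax7-positive progenitors from differentiating, and Dll1 is a ligand known to be needed for their maintenance. MyoD is the myogenic transcription factor that drives such cells towards differentiation.

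Progenitors had been sorted by flow cytometry as Vcam-1-positive, CD31-, CD45- and Sca1-negative cells from the back muscle of E17.5 embryos on a background mixed from 129/Ola, 129/Sv and C57BL/6 strains, and total RNA was measured on Illumina bead arrays. The genotypes were Pax3cre/+;Rbpjflox/flox;MyoD-/- (Rbpj;MyoD or Rbpj double mutants, 7 arrays), Pax3cre/+;DnMamlflox/flox;MyoD-/- (DnMaml;MyoD or DnMaml double mutants, 8 arrays), MyoD-/- (18 arrays), MyoD+/- (4 arrays) and wild type (10 arrays). Both double mutants and MyoD-/- therefore lack MyoD, and both Notch changes are driven by Pax3cre, a driver active in somite-derived muscle precursors and also in neural crest. No group carries Pax3cre alone, so its effect cannot be told apart from that of the Notch changes. The labels do not state how many embryos went into an array, so p-values measure only the spread between these samples, which may be in part technical. Arrays of chips 6 and 7 at the same position were averaged, which left 6, 7, 16, 3 and 9 samples in the order given, on 6 chip sets.

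Levels below are log2 normalised intensities of 1 probe a gene, and a probe counted as detected on an array at a detection p under 0.01. Levels of different genes are not compared, because each rests on its own probe. Changes are log2 differences adjusted for chip set in 1 fit over all 41 samples, with their standard error (SE), and a gene was called at an adjusted p under 0.05 over all genes tested. Array median intensity ran from 64.1 to 250.1, and it was lowest on chip 3, at 64.1 to 81.4, a chip that holds 3 of 6 Rbpj double-mutant and 4 of 16 MyoD-/- samples and no other group. Unadjusted group means therefore need not stand in the same order as adjusted levels.

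The labels were checked first. Myod1, the gene deleted in 3 of the 5 groups, averaged 8.97 ± 0.39 in Rbpj double mutants, 9.26 ± 0.17 in DnMaml double mutants and 9.28 ± 0.20 in MyoD-/-, against 10.84 ± 0.11 in MyoD+/- and 11.15 ± 0.25 in wild type (SD, n = 6, 7, 16, 3 and 9). The Myod1 probe was still detected on 7 of 7, 8 of 8 and 18 of 18 arrays of the groups that lack MyoD, and whether it lies in the deleted part is not known. The 3 probes of Rbpj were detected on 0 of 47 arrays, so its deletion could not be read, and the single Maml1 probe is not known to read the DnMaml transgene. Vcam1, used in the sort, was detected on 47 of 47 arrays, Ptprc (CD45) on 0 and Pecam1 (CD31) on 9, while the progenitor factors Pax7 and Myf5 were each detected on 2 and Pax3 on 0. The endothelial genes Tek, Esam and Egfl7 were detected on 47 arrays each, and the red-cell genes Hba-a1 on 47 and Hbb-bt on 45. Summed intensity of 8 fibroblast markers tested of 10 ran from 60900 to 98090 in Rbpj double mutants, from 45430 to 78050 in DnMaml double mutants, from 32110 to 77060 in MyoD-/- and from 25450 to 54480 in wild type. That of 3 Schwann and neural crest markers tested of 10 ran from 3178 to 4287, from 2501 to 3368, from 992.1 to 1816 and from 800.7 to 1425 in these 4 groups, with S100b, Foxd3 and Cdh19 below the detection filter. That of 12 differentiating muscle markers tested of 14 ran from 29100 to 40710, from 47540 to 58210, from 32660 to 47440 and from 29440 to 52800. That of 11 muscle progenitor markers tested of 15 ran from 40530 to 53070 in Rbpj double mutants, from 45670 to 63690 in DnMaml double mutants, from 61760 to 78990 in MyoD-/- and from 63390 to 75160 in wild type. That of 4 erythroid markers tested of 6 ran from 4909 to 17690, from 23210 to 42200, from 9794 to 52530 and from 7835 to 47400 in these 4 groups. That of 6 endothelial markers tested of 12 ran from 2434 to 3818, from 3312 to 4704, from 2590 to 4688 and from 3298 to 4965, with Cdh5, Kdr and Tie1 below the detection filter. That of 6 smooth muscle and pericyte markers tested of 9 ran from 11180 to 20760, from 20800 to 33870, from 14280 to 26720 and from 23960 to 40220, with Myh11, Cnn1 and Rgs5 below the detection filter. In MyoD+/- the sums ran from 41180 to 51800 for fibroblast, 1023 to 1645 for Schwann and neural crest and 43980 to 52440 for differentiating muscle markers. They ran from 68270 to 70030 for muscle progenitor and 4138 to 4756 for endothelial markers. For smooth muscle and pericyte markers they ran from 32790 to 35740, and for erythroid markers from 49480 to 56300, above every wild-type sample. The part of these cells in the results on Notch genes was not tested. In sorted bulk RNA fewer cells of a type and less RNA per cell cannot be told apart.

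Promoter windows are shown for Notch1 and Dll1, the members called in most comparisons, because Dll1 moved in opposite directions in the double mutants and Notch1 did not. The windows reach from 250 bases before to 50 after an annotated start and come from RefSeq, build GRCm38.p6, which holds windows for 7 of the 8 genes. They were searched on both strands for the RBPJ core TGGGAA and for 2 E-boxes, the kind of site that MyoD and myogenin bind, CAGCTG and CAGGTG, which share no overlapping match in these windows. The capitals mark the E-boxes.
Dll1, upstream start: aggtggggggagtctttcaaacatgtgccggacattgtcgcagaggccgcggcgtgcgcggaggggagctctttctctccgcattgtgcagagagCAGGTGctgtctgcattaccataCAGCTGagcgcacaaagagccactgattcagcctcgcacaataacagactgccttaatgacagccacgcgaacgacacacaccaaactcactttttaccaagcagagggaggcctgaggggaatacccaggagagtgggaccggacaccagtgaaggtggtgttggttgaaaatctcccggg
Dll1, downstream start: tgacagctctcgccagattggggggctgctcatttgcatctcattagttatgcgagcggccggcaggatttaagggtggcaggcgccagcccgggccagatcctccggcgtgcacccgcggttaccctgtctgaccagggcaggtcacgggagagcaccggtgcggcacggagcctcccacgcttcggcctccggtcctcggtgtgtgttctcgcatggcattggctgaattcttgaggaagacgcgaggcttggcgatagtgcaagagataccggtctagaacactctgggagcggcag
Notch1: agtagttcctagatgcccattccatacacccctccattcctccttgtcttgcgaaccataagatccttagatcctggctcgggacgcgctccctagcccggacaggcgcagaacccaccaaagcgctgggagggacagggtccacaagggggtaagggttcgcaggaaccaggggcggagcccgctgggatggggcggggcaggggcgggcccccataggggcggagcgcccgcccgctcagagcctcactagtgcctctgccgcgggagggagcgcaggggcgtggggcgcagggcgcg
The upstream Dll1 window lies at chr17:15376883-15377182 on the minus strand and holds 1 CAGGTG, at position -155 from the start, and 1 CAGCTG, at position -132. The downstream Dll1 window, chr17:15375774-15376073 on the minus strand, and the Notch1 window, chr2:26503773-26504072 on the minus strand, hold none of the 3 motifs. Among the other members, Jag1 and Adam17 each have 1 CAGCTG, Aph1a has 1 RBPJ core, and Jag2 and Maml1 have none of the 3. Over all 32851 promoter windows, 25.6% hold the RBPJ core, 16.3% CAGCTG and 20.2% CAGGTG, and 32.9% hold either E-box. A match in 1 window is therefore common, and these letters describe the window and not binding.

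Notch1, the receptor, was detected on 47 of 47 arrays. Its lowest, median and highest levels were 10.14, 10.36 and 10.52 in Rbpj double mutants, 9.42, 9.75 and 10.36 in DnMaml double mutants, 9.67, 10.50 and 10.92 in MyoD-/- and 10.69, 11.20 and 11.70 in wild type, and the 3 MyoD+/- samples had 10.85, 11.35 and 11.43. No double-mutant sample reached the lowest wild-type one, and 11 of 16 MyoD-/- samples lay below it. Adjusted for chip set, the order upward was DnMaml double mutants (10.004), Rbpj double mutants (10.15), MyoD-/- (10.46), MyoD+/- (11.03) and wild type (11.31). The first and second of these did not differ beyond their spread (adjusted p = 0.682), nor did the last pair (adjusted p = 1), while the steps between were called (adjusted p = 0.029 and 0.0102, limma).

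Mfng, the Fringe enzyme, was detected by 1 of its 2 probes, on 3 of 7 Rbpj double-mutant, 3 of 8 DnMaml double-mutant, 7 of 18 MyoD-/-, 4 of 4 MyoD+/- and 9 of 10 wild-type arrays. The lowest, median and highest Mfng levels were 5.90, 6.78 and 7.50 in Rbpj double mutants, 5.63, 6.22 and 6.92 in DnMaml double mutants, 5.06, 6.19 and 7.56 in MyoD-/- and 7.03, 7.53 and 8.04 in wild type, and the MyoD+/- samples had 7.40, 7.14 and 7.08. All 7 DnMaml double-mutant samples and 12 of 16 MyoD-/- samples lay below every wild-type sample, whereas the 3 Rbpj double-mutant samples of chip set 3, like the 3 highest MyoD-/- samples, which are of the same chip set, lay within the wild-type range. Adjusted levels were 6.30 in Rbpj double mutants, 6.43 in DnMaml double mutants and 6.22 in MyoD-/-, against 7.41 in MyoD+/- and 7.76 in wild type, and no 2 neighbours in order of level passed the test (adjusted p from 0.0614 to 1).

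Dll1, the Delta ligand, was detected on 45 of 47 arrays. For Dll1 the lowest, median and highest levels were 6.31, 7.37 and 7.61 in Rbpj double mutants, 7.34, 7.89 and 8.18 in DnMaml double mutants, 6.46, 7.48 and 7.94 in MyoD-/- and 7.51, 8.06 and 8.51 in wild type, and the MyoD+/- samples had 8.41, 8.85 and 7.87. DnMaml double-mutant samples thus lay mostly within the wild-type range, and the Rbpj double-mutant sample of chip set 6+7 was the lowest of all 41. Adjusted levels stood in the order Rbpj double mutants (6.92), MyoD-/- (7.37), DnMaml double mutants (7.95), wild type (8.22) and MyoD+/- (8.24). The first 2 steps were called (adjusted p = 0.0188 and 0.0024), and the last 2 were not (0.175 and 1).

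Jag1, a Jagged ligand, was detected on 6 of 7 Rbpj double-mutant, 3 of 8 DnMaml double-mutant, 13 of 18 MyoD-/-, 2 of 4 MyoD+/- and 7 of 10 wild-type arrays. Lowest, median and highest levels of Jag1 were 6.20, 7.21 and 8.48 in Rbpj double mutants, 5.84, 6.53 and 6.99 in DnMaml double mutants, 6.00, 7.27 and 8.33 in MyoD-/- and 6.15, 6.97 and 7.80 in wild type, and the MyoD+/- samples had 6.45, 6.30 and 6.66. The ranges of all 5 genotypes overlap, and no step in the order of adjusted levels passed the test (adjusted p from 0.832 to 1).

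Jag2, the other Jagged ligand measured, was detected on the fewest arrays among the 8 probes used, 0 of 7 Rbpj double-mutant, 2 of 8 DnMaml double-mutant, 9 of 18 MyoD-/-, 2 of 4 MyoD+/- and 6 of 10 wild-type arrays. For Jag2 the lowest, median and highest levels were 5.40, 6.06 and 6.83 in Rbpj double mutants, 5.67, 6.48 and 6.999 in DnMaml double mutants, 5.82, 7.003 and 7.93 in MyoD-/- and 6.397, 7.02 and 7.41 in wild type, and the MyoD+/- samples had 6.43, 6.74 and 6.33. The highest Rbpj double-mutant sample lay below the medians of MyoD-/- and wild type, and the ranges overlap. No step between neighbours passed the test, the nearest being that between DnMaml double mutants and MyoD-/- (0.47, adjusted p = 0.0633).

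**Figure D1:**
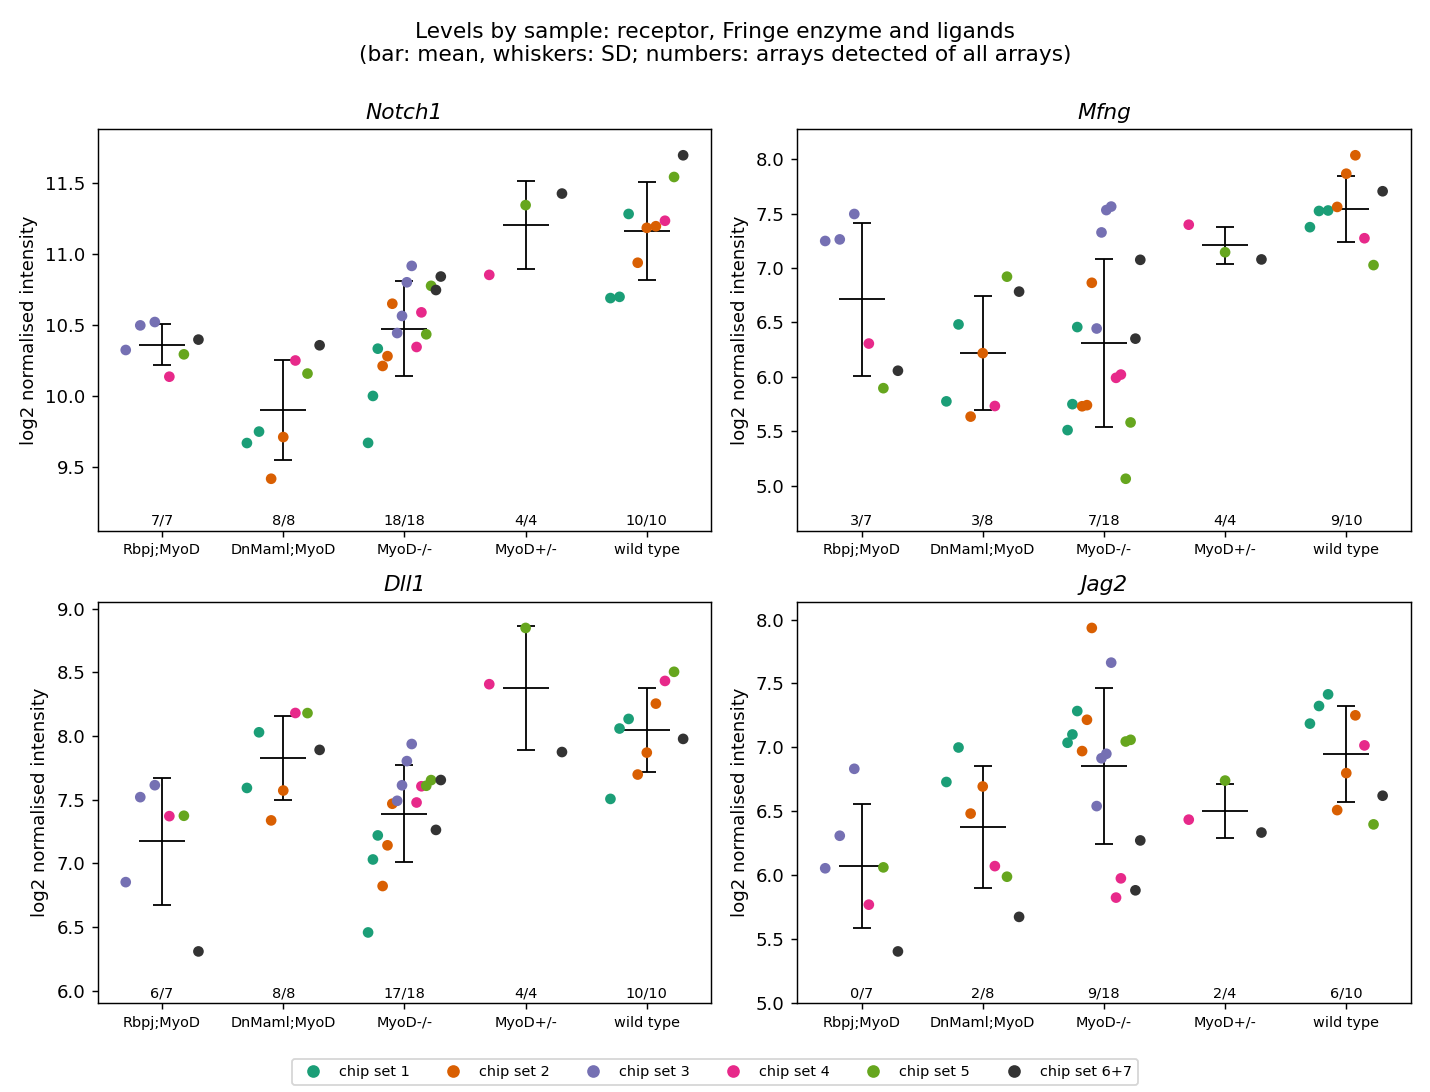
Log2 normalised intensity of Notch1, Mfng, Dll1 and Jag2 (vertical axes) in each of the 41 samples by genotype (horizontal axes), coloured by chip set, with group means as bars, SD as whiskers and the numbers giving arrays with the probe detected of all arrays. No double-mutant sample reaches the lowest wild-type sample for Notch1, DnMaml double-mutant samples of Dll1 range from 7.34 to 8.18 against 6.46 to 7.94 in MyoD-/-, and Jag2 is detected on 0 of 7 Rbpj double-mutant arrays.

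Adam17, a metalloprotease that sheds the receptor's outer part, was detected on 47 of 47 arrays. Lowest, median and highest levels of Adam17 were 9.45, 10.17 and 10.39 in Rbpj double mutants, 9.59, 10.06 and 10.32 in DnMaml double mutants, 8.91, 9.997 and 10.31 in MyoD-/- and 9.96, 10.20 and 10.55 in wild type, and the MyoD+/- samples had 10.30, 9.89 and 10.01. The genotypes overlap, and the 4 lowest MyoD-/- samples and the lowest Rbpj double-mutant sample were all of chip set 3. No neighbours in the adjusted order, from 9.92 in DnMaml double mutants to 10.27 in Rbpj double mutants, differed beyond their spread (adjusted p from 0.446 to 1).

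Aph1a, the gamma-secretase subunit, was detected by 1 of its 2 probes, on 46 of 47 arrays. The lowest, median and highest Aph1a levels were 8.46, 8.74 and 9.31 in Rbpj double mutants, 8.18, 8.29 and 8.64 in DnMaml double mutants, 8.14, 8.47 and 9.45 in MyoD-/- and 7.22, 8.28 and 8.63 in wild type, and the MyoD+/- samples had 8.46, 8.42 and 8.63. Apart from 1 low wild-type sample at 7.22, the ranges of the genotypes lie over each other, and adjusted levels spanned only 8.33 in wild type to 8.56 in Rbpj double mutants with no called step (adjusted p from 0.531 to 0.991).

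Maml1, the Mastermind cofactor, was detected on 47 of 47 arrays. Lowest, median and highest levels of Maml1 were 9.20, 9.72 and 9.80 in Rbpj double mutants, 9.50, 9.69 and 9.83 in DnMaml double mutants, 9.04, 9.76 and 10.28 in MyoD-/- and 8.98, 9.49 and 10.02 in wild type, and the MyoD+/- samples had 9.27, 9.24 and 9.62. All genotypes overlap. The adjusted order ran from 9.38 in MyoD+/- and 9.46 in wild type to 9.62, 9.73 and 9.73 in DnMaml double mutants, Rbpj double mutants and MyoD-/-, with no called step (adjusted p from 0.41 to 1).

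**Figure D2:**
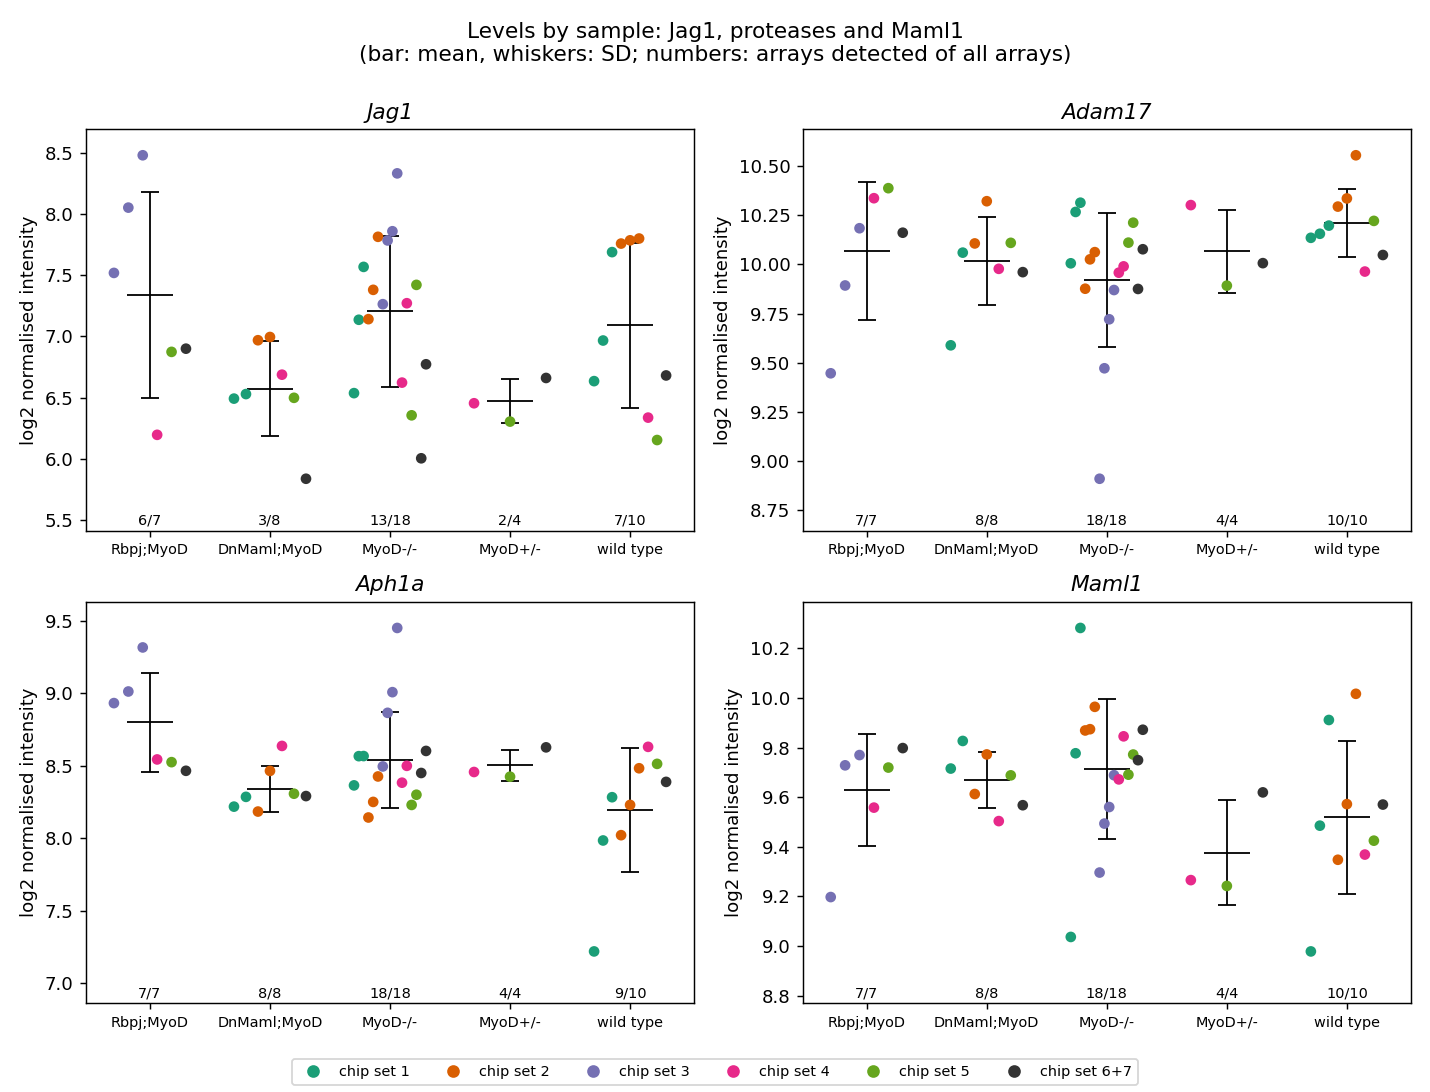
Log2 normalised intensity of Jag1, Adam17, Aph1a and Maml1 (vertical axes) in each of the 41 samples by genotype (horizontal axes), coloured by chip set, with group means as bars, SD as whiskers and the numbers giving arrays with the probe detected of all arrays. The genotypes overlap in all 4 genes, and 1 wild-type sample of chip set 1 has the lowest Aph1a level, 7.22.

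The comparison of MyoD-/- with wild type (16 and 9 samples) asks which of these genes follow the loss of MyoD. The receptor, the Delta ligand and the Fringe enzyme fell together, while both Jagged ligands, both proteases and Maml1 were not called. Mfng fell by 1.54 on the log2 scale (SE 0.19, adjusted p = 8.83e-08, limma), a value that includes 11 of 18 MyoD-/- arrays on which its probe was not detected. Notch1 fell by 0.85 (SE 0.09, adjusted p = 7.97e-09) and Dll1 fell by 0.85 (SE 0.12, adjusted p = 1.97e-06).

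In this comparison 3 of 8 members were called, all 3 lower, beside 22.1% of all genes called, 10.7% higher and 11.4% lower, and the median change was -0.08 over the members and -0.02 over all genes. The split of 929 genes higher and 985 lower became 801 and 370 when array medians were set equal in place of quantile normalisation. Each fall was present in all 5 chip sets with samples of both, from -0.94 to -0.73 for Notch1, from -0.998 to -0.52 for Dll1 and from -1.71 to -0.99 for Mfng. The uncalled members had 95% confidence intervals from -0.35 to 0.36 for Jag1, -0.34 to 0.28 for Jag2, -0.34 to 0.06 for Adam17, -0.07 to 0.40 for Aph1a and 0.05 to 0.50 for Maml1. Maml1 was higher by 0.27 (SE 0.11) with an adjusted p of 0.0753, and it was higher in all 5 chip sets. It was called when each array of chips 6 and 7 counted as its own sample (0.27, adjusted p = 0.0482). Beside these values, 1 of 12 differentiating muscle markers rose, Myh8 (1.60, adjusted p = 3.6e-14), with no overlap of the groups. In the other direction 8 fell, among them Myog (-1.23, adjusted p = 3.22e-05) and Ryr1 (-1.39, adjusted p = 3.86e-10). Of 11 muscle progenitor markers, a list that holds the deleted gene Myod1 itself, 3 rose and 5 fell. Of 6 endothelial markers 2 fell, Egfl7 and the receptor gene Notch4. The part of these markers in the falls of Notch1, Dll1 and Mfng was not tested.

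The comparison of DnMaml double mutants with MyoD-/- (7 and 16 samples) adds Pax3cre and a dominant-negative Mastermind to the loss of MyoD. This Mastermind occupies the RBPJ complex without activating it. Dll1 rose and Notch1 fell. The Dll1 change was 0.58 (SE 0.13, adjusted p = 0.0024), with 3 of 7 DnMaml double-mutant samples above the highest MyoD-/- sample and none below the lowest. Notch1 fell by 0.46 (SE 0.10, adjusted p = 0.00161), with 2 of 7 samples below the lowest MyoD-/- sample.

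Calls numbered 2 of 8 members, 1 in each direction, beside 8.81% of all genes, 5.39% higher and 3.42% lower. Both changes kept their direction in all 5 chip sets, from 0.31 to 0.91 for Dll1 and from -0.82 to -0.22 for Notch1. The Notch1 call was lost without chip set 2 (-0.33, adjusted p = 0.0793), and the Dll1 call was lost without a chip term (0.44, adjusted p = 0.155). Neither Jagged ligand was called: Jag1 differed by -0.46 (SE 0.19, adjusted p = 0.126) and Jag2 by -0.47 (SE 0.16, adjusted p = 0.0633), Jag1 in the same direction in all 5 chip sets. With each array of chips 6 and 7 as its own sample, Jag2 was called (-0.46, adjusted p = 0.0394). The intervals of the others were -0.19 to 0.62 for Mfng, -0.26 to 0.17 for Adam17, -0.28 to 0.21 for Aph1a and -0.35 to 0.13 for Maml1. Of the 12 differentiating muscle markers, 10 rose and 1 fell in this comparison, Myog (myogenin) among the higher ones (1.38, adjusted p = 3.59e-05). Of 11 muscle progenitor markers 1 rose and 5 fell, and all 3 Schwann and neural crest markers rose. The part of these markers in the Dll1 and Notch1 values was not tested.

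The comparison of Rbpj double mutants with MyoD-/- (6 and 16 samples) adds Pax3cre and removes the DNA-binding partner of the receptor's intracellular domain. Notch1, Dll1 and Jag2 fell, and no member rose. The MyoD-/- samples are those used above for DnMaml double mutants. Notch1 fell by 0.32 (SE 0.11, adjusted p = 0.029) and Dll1 fell by 0.45 (SE 0.14, adjusted p = 0.0188). Neither was called without a chip term, where Notch1 differed by -0.11 (adjusted p = 0.676) and Dll1 by -0.22 (adjusted p = 0.471). Jag2, detected on 0 of 7 Rbpj double-mutant arrays and averaging 6.07 in Rbpj double mutants and 6.85 in MyoD-/-, was at least 1.13-fold lower (adjusted p = 0.00611). This bound sets the mean of MyoD-/- against the lowest level that still counted as detected on the Rbpj double-mutant arrays, without adjustment for chip set, or against the probe's own level where that was higher. The adjusted p of Jag2 belongs to the fitted change of the measured levels, undetected throughout in Rbpj double mutants, and does not test the bound.

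Here 3 of 8 members were called, all lower, beside 20.1% of all genes, 10.2% higher and 9.92% lower. Direction was the same in all 4 chip sets with samples of both, from -0.40 to -0.23 for Notch1, from -1.15 to -0.17 for Dll1 and from -0.99 to -0.13 for Jag2. The Dll1 value rests in part on the averaged sample of chip set 6+7, Rbpj double-mutant replicate 6-7: without it Dll1 differed by -0.33 (adjusted p = 0.132), and without replicate 3 by -0.36 (adjusted p = 0.0655). The Dll1 call was also lost without chip set 3 (-0.50, adjusted p = 0.0695), without 6+7 (-0.30, 0.18) and with equal array medians (-0.45, 0.051). Without chip set 3, 4, 5 or 6+7 the Notch1 call was lost (adjusted p = 0.076, 0.087, 0.0951 and 0.115), as it was with only these 2 groups fitted (-0.29, 0.075). The Notch1 call was lost without Rbpj double-mutant replicate 3 (adjusted p = 0.0533), 4 (0.0643), 5 (0.0814) or 6-7 (0.0882) or MyoD-/- replicate 10 (0.0552), with changes of -0.31 to -0.29. Adam17 was higher by 0.31 (SE 0.11) with an adjusted p of 0.0548, in all 4 chip sets by 0.18 to 0.36, and it was called with each array of chips 6 and 7 as its own sample (0.29, adjusted p = 0.036). Intervals were -0.33 to 0.49 for Jag1, -0.35 to 0.52 for Mfng, -0.20 to 0.34 for Aph1a and -0.26 to 0.25 for Maml1. In the same contrast 2 of 12 differentiating muscle markers rose and 4 fell, Myog among those that fell (-1.10, adjusted p = 0.000796), and 6 of 8 fibroblast markers rose. Of 11 muscle progenitor markers 1 rose and 9 fell (median -0.75), with no overlap of the summed levels given above, 3 of 4 erythroid markers fell (median -1.73) and 2 of 3 Schwann and neural crest markers rose (median 1.16). The part of these 5 lists in the values of Notch1, Dll1 and Jag2 was not tested.

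**Figure D3:**
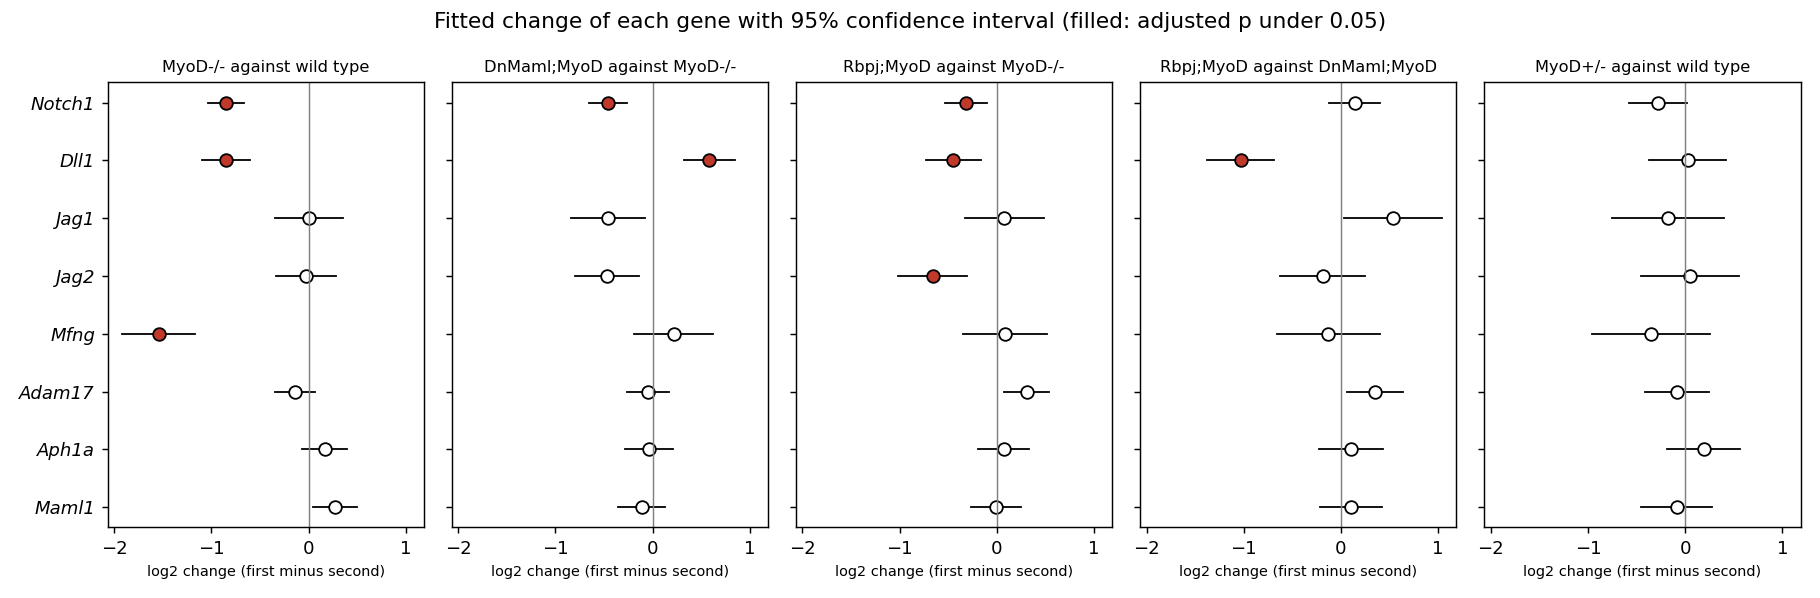
Fitted log2 change of each of the 8 genes (rows) in the 5 comparisons (panels), first genotype minus second, with 95% confidence intervals, where filled points have an adjusted p under 0.05. Dll1 is at 0.58 in DnMaml;MyoD and at -0.45 in Rbpj;MyoD against MyoD-/-, and no point is filled for MyoD+/- against wild type.

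The changes in Rbpj double mutants and DnMaml double mutants (6 and 7 samples) act on the same nuclear complex by different means. Their direct comparison tests whether the responses of a gene differ. Dll1 was the 1 member called: it was 2.04-fold lower in Rbpj double mutants than in DnMaml double mutants (-1.03, SE 0.17, adjusted p = 0.00014). The sign was the same in the 3 chip sets with samples of both, each with 1 sample against 1, from -1.58 to -0.81. Over all chip sets, 2 of 6 Rbpj double-mutant samples lay below every DnMaml double-mutant sample. Chip set 3 holds 3 of the 6 Rbpj double-mutant samples and no DnMaml double mutant. Chip sets 1 and 2 each hold 2 of the 7 DnMaml double-mutant samples and no Rbpj double mutant. These samples are compared only through the other genotypes in the fit. Dll1 is 1 of 8 members called, beside 3.94% of all genes, 1.59% higher and 2.34% lower. The Dll1 call was lost without a chip term (-0.65, adjusted p = 0.0693) and with only the samples of these 2 groups in the fit (-1.07, adjusted p = 0.0847).

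Notch1 did not differ beyond its spread between the double mutants (0.14, 95% interval -0.12 to 0.41, adjusted p = 0.682). Jag1 was higher in Rbpj double mutants by 0.54 (SE 0.25, adjusted p = 0.28) and Adam17 by 0.35 (SE 0.14, adjusted p = 0.185), neither of them called. For Jag2 the interval was -0.62 to 0.25, for Mfng -0.66 to 0.41, for Aph1a -0.22 to 0.43 and for Maml1 -0.21 to 0.43. Of the differentiating muscle markers, 0 of 12 were higher and 9 were lower in Rbpj double mutants, as were 3 of 11 muscle progenitor and 3 of 4 erythroid markers. These differences run in the direction of Dll1, and their part was not tested.

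**Figure D4:**
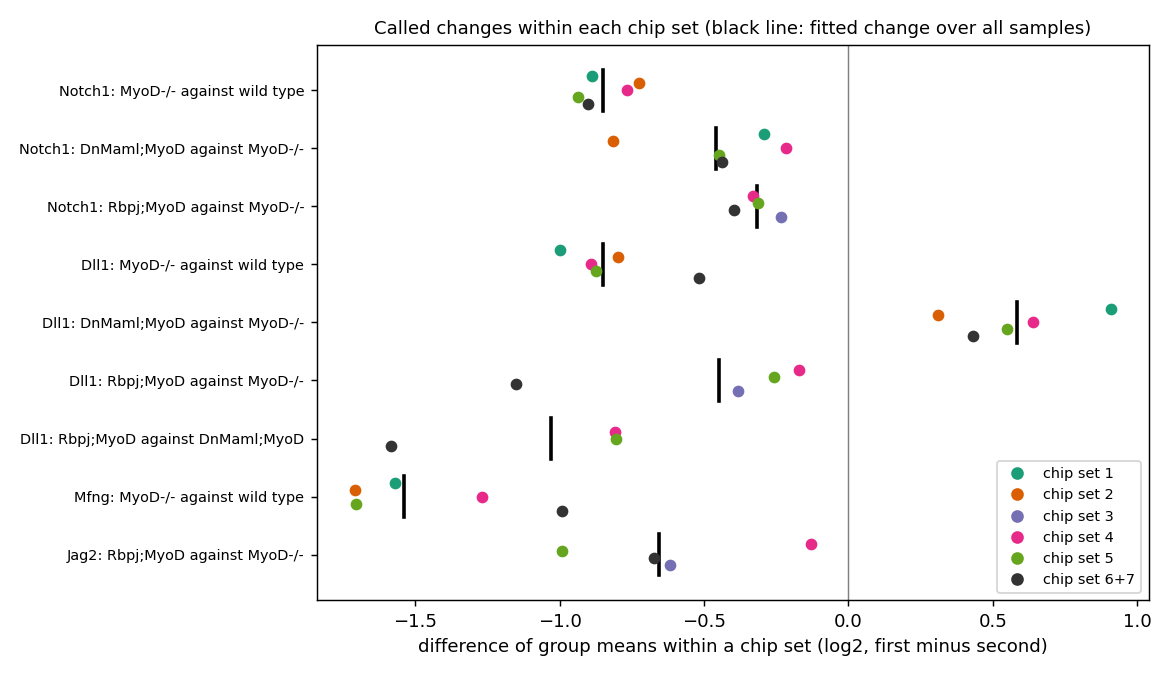
Difference of group means within each chip set (horizontal axis, log2, first genotype minus second) for the 9 called changes of members in the comparisons shown (rows), with points coloured by chip set and a black line at the fitted change. All points lie on the same side of 0 as the fitted change, and in chip set 6+7 Dll1 of Rbpj;MyoD lies farthest from 0, at -1.15 against MyoD-/- and -1.58 against DnMaml;MyoD. For Rbpj;MyoD against DnMaml;MyoD each point sets 1 sample against 1.

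MyoD+/- against wild type (3 and 9 samples) asks whether 1 copy of MyoD is enough for these genes. None of the 8 members was called, nor was any of the 8658 genes, 0% in all, and at an unadjusted p under 0.05 there were 0 members and 314 genes (limma). Notch1 averaged 11.21 ± 0.31 in MyoD+/- and 11.16 ± 0.34 in wild type (SD), and adjusted for chip set it differed by -0.28 (95% interval -0.58 to 0.02), in the same direction in all 3 chip sets. Each of these chip sets sets 1 sample against 1. Dll1 differed by 0.03 (-0.37 to 0.42) and Mfng by -0.35 (-0.96 to 0.26), and the other 5 members by -0.17 to 0.19.

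Set against MyoD+/-, MyoD-/- had lower Notch1, Dll1 and Mfng, 3 of 8 members beside 3.37% of all genes. DnMaml double mutants had lower Notch1 alone, 1 of 8 beside 4.49%, and Rbpj double mutants had lower Notch1, Dll1 and Mfng, 3 of 8 beside 10.4%. Set against wild type, DnMaml double mutants had lower Notch1 (-1.31, adjusted p = 5.44e-12), Mfng (-1.33, adjusted p = 1.19e-05) and Jag2 (-0.50, adjusted p = 0.0355), 3 of 8 beside 22.4%. Dll1 in DnMaml double mutants differed from wild type by -0.27 (95% interval -0.55 to 0.02, adjusted p = 0.175). Rbpj double mutants had lower Notch1 (-1.16, adjusted p = 6.44e-09), Dll1 (-1.30, adjusted p = 2.2e-07) and Mfng (-1.45, adjusted p = 4.57e-05) than wild type. Jag2 was at least 1.21-fold below the measured wild-type mean (adjusted p = 0.0165, limma), which made 4 of 8 beside 20.1%. Here too the adjusted p of Jag2 belongs to the fitted change and does not test the bound. The wild-type mean includes arrays on which the Jag2 probe was not detected, with detection on 6 of 10. These comparisons share samples with those above and are no separate evidence.

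The rest of the pathway was read from lists of components by role, to which the members also belong. These lists too were chosen with earlier results of these data known, so their counts are a description. Of all genes, 10.7% were called higher and 11.4% lower in MyoD-/- against wild type. Against MyoD-/-, these shares were 5.39% and 3.42% in DnMaml double mutants and 10.2% and 9.92% in Rbpj double mutants. Between the double mutants they were 1.59% and 2.34%. Among Notch receptors, 3 of the 4 genes passed the filter and all 3 fell in MyoD-/- against wild type. Notch3, a receptor that is itself a Notch target, fell by 1.46 (SE 0.12, adjusted p = 1.25e-11) and Notch4 by 0.57 (SE 0.12, adjusted p = 0.000463), while Notch2 was detected on 0 of 47 arrays. Notch4 is also on the endothelial list, where Egfl7 fell as well (-0.63, adjusted p = 1.32e-06), and the part of endothelial cells in its value was not tested. In both double mutants Notch3 fell further against MyoD-/-, by 1.33 in DnMaml double mutants (adjusted p = 4.42e-09) and by 1.10 in Rbpj double mutants (adjusted p = 1.67e-07), and in neither did the groups overlap. Of 6 smooth muscle and pericyte markers, 0 rose and 2 fell in MyoD-/- against wild type. Against MyoD-/-, 2 rose and 1 fell in DnMaml double mutants, and 2 rose and 2 fell in Rbpj double mutants. The part of such cells in the Notch3 values was not tested.

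Among ligands and ligand-like proteins 5 of 8 were tested, and Dll3 and Dll4 were detected on 0 arrays. Dner, a Delta-like membrane protein described as a Notch ligand in neural tissue, averaged 8.58 ± 0.50 in Rbpj double mutants, 9.28 ± 0.38 in DnMaml double mutants and 8.36 ± 0.33 in MyoD-/- (SD). It rose by 0.90 in DnMaml double mutants against MyoD-/- (adjusted p = 1.06e-05), with no overlap of the groups, and was lower in Rbpj double mutants than in DnMaml double mutants (-0.75, adjusted p = 0.00774), with overlap. Dll1 and Dner were thus the 2 ligands called in this last comparison, both lower in Rbpj double mutants. Of 6 Fringe and glycosylation enzymes tested, Mfng alone was called in MyoD-/- against wild type and none in either double mutant against MyoD-/-.

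Of 7 receptor-cleaving proteases tested, Psen2, a catalytic subunit of gamma-secretase, was lower in MyoD-/- than in wild type (-0.95, adjusted p = 4.1e-06). Aph1b, the paralogue of Aph1a, fell by 0.73 (adjusted p = 0.00417), although within chip set 6+7 it was higher by 0.54. Furin, which cuts the receptor during its maturation, rose by 0.64 (adjusted p = 0.00173). In DnMaml double mutants none of the 7 was called against MyoD-/-, and in Rbpj double mutants Furin alone fell (-0.46, adjusted p = 0.0495).

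Among 11 regulators of endocytosis and turnover, Neurl1a, a ubiquitin ligase that acts on Notch ligands, fell in MyoD-/- against wild type (-0.85, adjusted p = 8.99e-07) and rose in DnMaml double mutants against MyoD-/- (0.59, adjusted p = 0.00144). Fbxw7, which targets the intracellular domain for degradation, fell in both double mutants against MyoD-/-, by 0.37 in DnMaml double mutants (adjusted p = 0.0266) and by 0.41 in Rbpj double mutants (adjusted p = 0.0102), and Dtx3, a Deltex family ubiquitin ligase, rose in Rbpj double mutants (0.55, adjusted p = 0.000286). Among 10 nuclear cofactors tested, Hdac2 fell in MyoD-/- against wild type (-0.25, adjusted p = 0.00478), Snw1 in DnMaml double mutants (-0.53, adjusted p = 0.0494) and Kat2b in Rbpj double mutants (-0.53, adjusted p = 0.0373), the last 2 against MyoD-/-. The Snw1 probe was detected on 21 of 47 arrays. The Snw1 call, the Kat2b call and the Furin call in Rbpj double mutants lie close to the threshold. When single samples were left out they were lost in 19 of 23, 5 of 22 and 16 of 22 cases. Of 18 alternatives, 7, 8 and 8 kept the call, and Kat2b turned sign with the replicate block. The Fbxw7 calls were lost in 8 of 18 alternatives in DnMaml double mutants and in 4 of 18 in Rbpj double mutants. When single samples were left out, they were lost in 3 of 23 and 1 of 22 cases.

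Of 9 Notch target genes tested, 5 fell and 1 rose in MyoD-/- against wild type, beside 11.4% of all genes lower and 10.7% higher. The 5 lower ones include the repressor genes Heyl (-1.86, adjusted p = 4.4e-10) and Hey1 (-1.20, adjusted p = 6.35e-09) and the feedback regulator Nrarp (-1.43, adjusted p = 1.64e-06). The Heyl probe was detected on 30 and the Nrarp probe on 26 of 47 arrays, so these values include levels not above background. Against MyoD-/-, 5 fell and 1 rose in DnMaml double mutants, beside 3.42% of all genes lower and 5.39% higher. In Rbpj double mutants 5 fell and 2 rose, beside 9.92% lower and 10.2% higher. Heyl was detected on 0 of 7 Rbpj double-mutant and 0 of 8 DnMaml double-mutant arrays, and it was at least 1.33-fold lower in Rbpj double mutants than in MyoD-/- (adjusted p = 2.75e-08) and at least 1.37-fold lower in DnMaml double mutants than in MyoD-/- (adjusted p = 5.03e-07). Both adjusted p of Heyl belong to the fitted changes and do not test these bounds. Hey1 fell by 1.16 in DnMaml double mutants (adjusted p = 1.64e-07), and Dtx4, a Deltex family gene, fell by 1.003 in Rbpj double mutants (adjusted p = 7.2e-09) and by 0.79 in DnMaml double mutants (adjusted p = 4.65e-07). Bhlhe40, a repressor gene also on that list, rose by 1.12 in Rbpj double mutants (adjusted p = 2.4e-06).

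**Figure D5:**
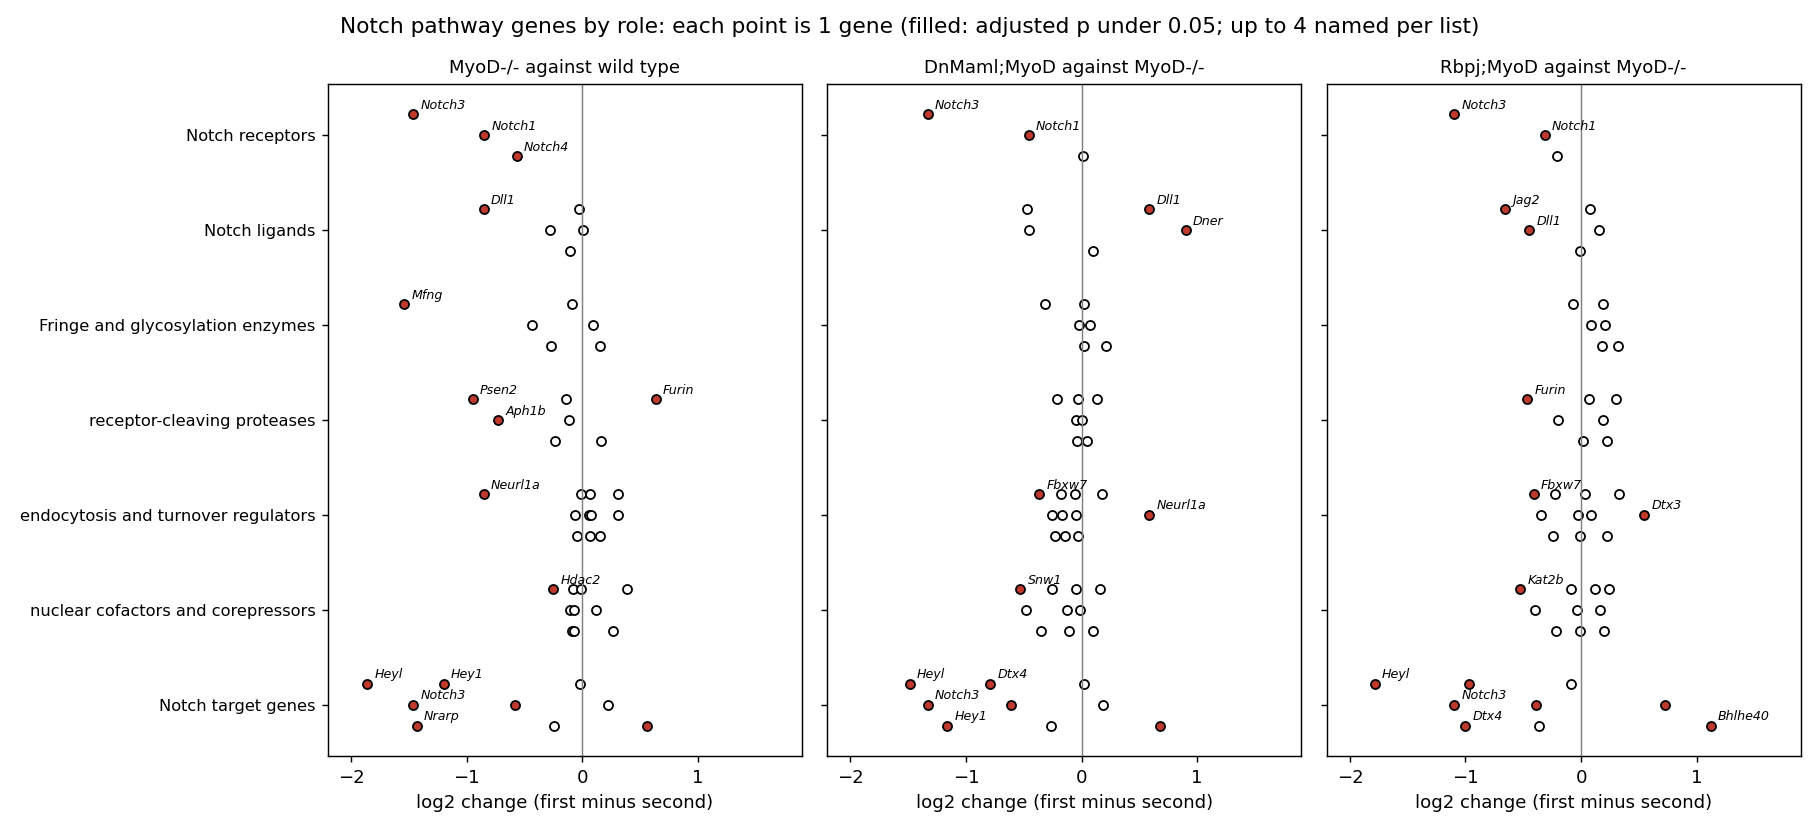
Log2 change (horizontal axis, first genotype minus second) of Notch pathway genes grouped by role (rows) in 3 comparisons (panels), where each point is 1 gene and filled points have an adjusted p under 0.05. All 3 Notch receptors are filled below 0 for MyoD-/- against wild type, Dll1 and Dner lie above 0 for DnMaml;MyoD, and the fitted points of Heyl in the double mutants rest on levels not above background.

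The members were also compared with each other and with the other 8657 genes by the Pearson correlation of chip-adjusted levels over the 41 samples, as a description. The samples share genotypes, so a correlation holds the differences between groups as well as the spread within them. Notch1 ran most closely with Dag1, the matrix receptor dystroglycan, and with Notch3 (r = 0.917 each), and Mfng with Ryr1, the calcium release channel of muscle (0.855), and Smarcd3, a chromatin remodelling subunit (0.85). Dll1 ran with Myog (0.811) and the Myc family gene Mycl (0.805). Jag2 ran with Chst3 (0.729) and Myl12a (0.726), Jag1 with Nup160 and Rad18 (0.669 each), Adam17 with Prkd3 (0.765) and Stag2 (0.764), Aph1a with Rufy3 (0.699) and Setd2 (0.692), and Maml1 with Eci2 (0.873) and Rab10 (0.77). Between members the closest pairs were Notch1 with Mfng (0.766), Dll1 with Mfng (0.653) and Notch1 with Dll1 (0.567), whereas Dll1 and Jag1 had -0.271 and Jag2 and Adam17 had -0.484.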

How the data were processed

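The deposited table gives, for each of 25697 probes on 47 arrays, the authors' non-normalised bead intensity and a detection p-value, exported with GenomeStudio 2010.1, as the submitters' processing notes state. A second deposited table holds the authors' processed intensity, which served as an alternative after values under 16 were set to 16 and log2 was taken. Intensities were background-corrected against negative controls inferred from the detection p-values, quantile normalised and log2 transformed with neqc in limma 3.58.1 (R 4.3.3, offset 16). Probes detected at p under 0.01 on at least 4 arrays were kept, and the brightest probe stood for a gene, which left 8658 genes. Of 12 arrays on chips 6 and 7, 7 correlated best with their partner at the same position (median r 0.511), and each of these 6 pairs was averaged. In 2 of the 6 pairs the Y-linked Eif2s3y was detected on only 1 array, so not all pairs need be repeats of the same RNA, and every array as its own sample was an alternative. One limma fit over the 41 samples held genotype and chip set, with 31 residual degrees of freedom. Tests were two-sided with Benjamini-Hochberg adjustment over all genes, at 0.05, and the fit was tested on simulated data. The number of arrays limits precision. Same-numbered replicates of 2 groups correlated from -0.266 to 0.408, above 0.1 in 4 of 9 pairs in MyoD-/- against wild type, 2 of 7 in DnMaml double mutants and 2 of 6 in Rbpj double mutants against MyoD-/-, 0 of 3 in MyoD+/- against wild type and 5 of 6 in Rbpj against DnMaml double mutants. As no comparison had every pair above 0.1, numbers were not used as pairs. Alternatives changed scaling, offset, filter, chip set, pairing and samples.

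The 8 genes, the pathway and marker lists and the promoter motifs were chosen with earlier results of these data known. Named were all 8 genes, up to 4 called genes of a pathway list in a comparison, and the 2 genes most like each member. Mfng is not in the promoter table.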

Additional observations from a re-analysis of the deposited data

Results flagged for a closer look

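Aph1a was at 7.218 in wild type replicate 1, on the log2 scale, and at 7.983 in the next lowest of the 9 wild-type samples, a gap of 0.542 of the whole range in that group. It is 1 of 24 sets of gene and genotype examined in this way, and chance marks about 1 set in 20.

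The effect of the double mutants on Dll1 differed between them. Rbpj double mutants minus DnMaml double mutants was -1.03 (adjusted p = 0.00014, limma), with means of 7.17 ± 0.50 in Rbpj double mutants and 7.83 ± 0.33 in DnMaml double mutants (SD, n = 6 and 7).

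Dner differed in the same contrast by -0.75 (adjusted p = 0.00774), with means of 8.58 ± 0.50 in Rbpj double mutants and 9.28 ± 0.38 in DnMaml double mutants. Dner lost its call when array medians were set equal (-0.70, adjusted p = 0.115), in chip sets 4, 5 and 6+7 alone (-0.63, 0.0626), without chip set 5 (-0.63, 0.0985), with only these groups in the fit (-0.63, 0.516) and without Rbpj double-mutant replicate 5 (-0.65, 0.0565).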

How the results depend on the processing

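The 3 calls in MyoD-/- against wild type (Notch1, Dll1 and Mfng lower) held under every alternative run, with 3 to 4 members called when 1 sample was left out. In DnMaml double mutants against MyoD-/-, 2 members were called, but 1 without a chip term or without chip set 2, and 2 to 3 with 1 sample left out. In Rbpj double mutants against MyoD-/-, 3 were called, but 1 without a chip term, without chip set 3 or without chip set 6+7. Calls there numbered 2 with equal array medians, with chip set as a random block and in chip sets 4, 5 and 6+7 alone. They also numbered 2 without chip set 4 and without chip set 5. With 1 sample left out they numbered 1 to 4. Between Rbpj double mutants and DnMaml double mutants, 1 was called, but 0 without a chip term or with only these groups fitted, and 1 with any 1 sample left out. With a replicate block added, 0 members were called in these last 3 comparisons. Between Rbpj double mutants and DnMaml double mutants, where 5 of 6 same-numbered pairs correlated above 0.1, Dll1 with the block was -0.93 (adjusted p = 0.517). Numbers did not pair samples in any comparison by the rule that every pair correlate above 0.1, and the block left MyoD-/- against wild type at 3. Over all genes the block called 192, 21 and 10 genes in them, in place of 763, 1742 and 341. With equal array medians 353, 1066 and 193 were called there, and 1171 in place of 1914 in MyoD-/- against wild type. In MyoD+/- against wild type equal medians called 1 gene and leaving out chip set 6+7 called 6, none a member. The cause of these changes was not tested. Jag2 lost its call in Rbpj double mutants against MyoD-/- in chip sets 4, 5 and 6+7 alone (-0.60, adjusted p = 0.0672), and Notch1 with chip set as a random block (-0.27, 0.0946). Maml1 was called in MyoD-/- against wild type when array medians were set equal (0.38, adjusted p = 0.0205).

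Values that turned sign were those of uncalled members, except 3 called genes: within chip set 6+7 Aph1b was 0.54 in MyoD-/- against wild type, within chip set 4 Fbxw7 was 0.0078 in DnMaml double mutants against MyoD-/-, and with the replicate block Kat2b was 0.12 in Rbpj double mutants against MyoD-/-. In MyoD-/- against wild type, Jag1 turned to -0.0062 (offset of 50), -0.021 (every array as its own sample), -0.19 (replicate block), -0.055 (without chip set 4) and -0.10 (without 5). Jag2 turned to 0.0057 (common median), 0.064 (replicate block), 0.023, 0.14 and 0.053 (without chip sets 1, 4 and 6+7), and Aph1a to -0.10 (chip sets 4, 5 and 6+7 only) and -0.044 (without 1). In DnMaml double mutants against MyoD-/-, Mfng turned to -0.092 (no chip term) and -0.019 (without chip set 5), Adam17 to 0.096 (no chip term) and 0.069 (without 1), and Aph1a to 0.00078 (chip sets 4, 5 and 6+7 only) and 0.027 (without 1). In Rbpj double mutants against MyoD-/-, Jag1 turned to -0.26 (replicate block), -0.085 (chip sets 4, 5 and 6+7 only), -0.013 (without 6+7) and -0.021 (without 3), Mfng to -0.016 (every array), Aph1a to -0.11 (replicate block) and Maml1 to 0.031 (without 4).

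In MyoD+/- against wild type, Notch1 turned to 0.045 and Jag2 to -0.44 with no chip term, and Dll1 to -0.0297 (every array) and -0.14 (without chip set 5). Jag1 turned to 0.082, Jag2 to -0.18 and Aph1a to -0.0079 both in chip sets 4, 5 and 6+7 and with only these groups fitted. Jag2 also turned to -0.062 (random block) and -0.099 (without 2), Mfng to 0.0701 and Aph1a to -0.085 with the replicate block, and Adam17 to 0.056 (without 5). In Rbpj double mutants against DnMaml double mutants, Mfng turned to 0.49 (no chip term), 0.027 (random block), 0.049 (without 5) and 0.0104 (without 6+7), and Maml1 to -0.041 (no chip term) and -0.031 (replicate block).

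With 1 sample left out, ranges that crossed 0 were -0.093 to 0.084 for Jag1 and -0.12 to 0.088 for Jag2 in MyoD-/- against wild type, -0.084 to 0.026 for Adam17 in DnMaml double mutants against MyoD-/-, and -0.022 to 0.24 for Jag1, -0.019 to 0.19 for Mfng and -0.0496 to 0.058 for Maml1 in Rbpj double mutants against MyoD-/-. They were -0.13 to 0.14 for Dll1, -0.035 to 0.21 for Jag2 and -0.23 to 0.0603 for Adam17 in MyoD+/- against wild type, and -0.24 to 0.11 for Mfng in Rbpj double mutants against DnMaml double mutants. Signal over background limits Jag2, Mfng and Jag1, which were detected on 19, 26 and 31 of 47 arrays.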
